A study of Mus musculus with 6 samples.

Results

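Proteasome genes are described here in E14Tg2a mouse embryonic stem cells whose nucleolin gene, Ncl, was targeted by siRNA. Genes were taken by name: the platform symbol had to start with Psm, followed by 1 of the letters a to g and a digit, on a probe set that carried no other symbol. This gave 49 of the 18194 genes measured. Psmc3ip, a meiotic recombination factor, and Psme3ip1, a protein that binds the activator Psme3, share only the start of the name with proteasome genes, so the counts cover the other 47. These are the alpha ring (8 genes), the beta ring (7), the immunoproteasome beta subunits (3), the thymus beta subunit (1), the core assembly chaperones (4), the regulatory particle ATPases (6) and non-ATPases (11), the base assembly chaperones (3), the activators (3) and an inhibitor (1). Psme2 and Psme2b share a probe set with each other and were not analysed here.

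Total RNA was taken at 96 h and measured on Affymetrix arrays, 2 arrays for each of 3 groups. Control cells had received a duplex against firefly luciferase, and the others Ncl siRNA #1 or Ncl siRNA #2. All 3 groups are therefore transfected cells of the same line and differ, per the labels, in the siRNA alone. A level is the deposited log2 signal of 1 probe set per gene, chosen for its highest mean signal, and a change is a difference of group means with its standard error (SE) from limma. "Rose" and "fell" are written of a gene whose limma p-value, adjusted by Benjamini-Hochberg over all 18194 genes, was under 0.05. Whether the 2 arrays of a group came from separate cultures is not stated, so a p-value here covers the spread among arrays that may be technical replicates, and their number limits the precision.

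The proteasome degrades proteins that carry ubiquitin chains. Its core particle is a barrel of alpha rings, which gate the entry, around beta rings, which hold the proteolytic sites, and a regulatory particle of ATPases and lid subunits recognises, unfolds and feeds in the substrate. Psmb5, Psmb6 and Psmb7 carry the catalytic sites of the constitutive core, and Psmb8, Psmb9 and Psmb10 take their places in the immunoproteasome, which is induced by interferon and abundant in blood cells. Embryonic stem cells are known for high proteasome activity.

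The groups also differed in markers of other cell types. Of 10 lung epithelium markers 9 fell with Ncl siRNA, and their summed linear signal was 11464 to 12069 in the control arrays against 368 to 425 with siRNA #1 and 402 to 417 with siRNA #2. All 8 heart muscle markers fell (median -1.05). Of 6 fibroblast and feeder cell markers 4 fell and 0 rose (median -0.98, with Col3a1 at -2.54), and of 6 endothelial markers 2 rose and 3 fell (median -0.41, with Tek at 1.03). Of 22 leukocyte markers 5 rose, 5 fell and 12 did not pass. Over all genes tested 20.3% rose and 21.7% fell, and the leukocyte counts lie near these shares. The summed leukocyte signal was 3106 to 3148 in the control arrays, 3674 to 3715 with siRNA #1 and 3533 to 3665 with siRNA #2. Being linear, this sum is weighted to its brightest marker, Laptm5 (mean signal 10.93), and does not measure leukocyte content. Ptprc, the pan-leukocyte surface protein, read at most 4.37 on any array, below the array medians of 5.727 to 5.79, whereas other markers of that list were well above them and rose, such as Laptm5, which read 10.71 to 11.05, and Cd68, which read 8.22 to 8.80. Among 8 stem cell markers 6 fell, Nanog and Pou5f1 included, while Utf1 rose by 0.29 (SE 0.05) and Sox2 did not pass. Their summed signal was 79592 to 79976 in the control arrays, 68634 to 69581 with siRNA #1 and 60413 to 60490 with siRNA #2. The bacterial poly-A controls averaged 6.71 in the control arrays, 7.53 with siRNA #1 and 7.29 with siRNA #2. The part of these differences in the proteasome results was not tested, and since both control arrays carried the lung transcripts no result against control can be given without them. In bulk RNA, fewer cells of a type and less RNA per cell cannot be told apart. On its probe set of highest mean signal, the target Ncl was at 72.9% (siRNA #1) and 72.5% (siRNA #2) of its control level.

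Promoter sequence from RefSeq (GRCm38.p6) was matched by Entrez gene identifier for 39 of the 47 genes. Windows were 300 bases long, from 250 before to 50 after the annotated start. The stretches shown belong to genes on which the comparisons turn, 5′ to 3′ on the strand of the named gene, and capitals mark the letters of a searched motif.

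The first lies on chromosome 17 between the starts of Psmb9 and Tap1, which are transcribed away from each other, and is the whole gap between both genes (chr17:34187331-34187555, minus strand). Its capitals are ATTGG, the CCAAT box read on the other strand. The second lies before an annotated start of Psmb8 (chr17:34198058-34198146, plus strand) and has a STAT site, TTCNNNGAA, in capitals.
Psmb9: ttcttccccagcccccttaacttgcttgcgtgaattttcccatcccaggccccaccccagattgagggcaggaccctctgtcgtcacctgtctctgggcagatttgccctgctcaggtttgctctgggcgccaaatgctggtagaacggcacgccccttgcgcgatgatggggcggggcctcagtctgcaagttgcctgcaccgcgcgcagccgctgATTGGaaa
Psmb8: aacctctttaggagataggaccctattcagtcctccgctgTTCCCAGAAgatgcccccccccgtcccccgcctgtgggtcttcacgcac

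The other stretches are from Psma7 (chr2:180042636-180042680, minus strand) and Psmb3 (chr11:97703329-97703415, plus strand), core genes that fell, with CCAAT boxes in capitals, and from Psmb5 (chr14:54618004-54618072, minus strand), a core gene that did not pass. In Psmb5 the capitals mark TGACNNNGC, the core letters of the antioxidant response element that factors of the Nfe2l family bind.
Psma7: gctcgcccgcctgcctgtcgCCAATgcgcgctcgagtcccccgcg
Psmb3: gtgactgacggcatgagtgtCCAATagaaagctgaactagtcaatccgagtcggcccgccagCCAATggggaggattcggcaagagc
Psmb5: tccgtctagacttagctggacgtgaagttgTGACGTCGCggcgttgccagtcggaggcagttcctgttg

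Over the 41 windows of these 39 genes, searched on both strands, TGACNNNGC was found in 6 (14.6%), against 12.4% of 32851 windows of all genes. CCAAT was found in 14 (34.1% against 37.4%) and TTCNNNGAA in 3 (7.32% against 8.3%). GAAA followed by any 2 bases and GAAA again, letters of an interferon response element, was found in 5 (12.2% against 3.44%), those of Psmb3, Psmd4, Psmd9, Psme1 and Psmg4, and not in the windows of Psmb8, Psmb9 or Psmb10. A match is a description of letters and not a site. The printed stretches do not stand for all matches. CCAAT also lay in windows of Psma2, Psmc1, Psmc2 and Psmd14, which did not pass, and of Psmd4, which rose. TGACNNNGC also lay in windows of Psmb6, Psmd9 and Psmd12, which fell, of Psmc6, which rose, and of Psme4, which did not pass.

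Which proteasome transcripts moved when Ncl was targeted was asked first with the mean of both Ncl siRNAs, set against the control siRNA (4 arrays and 2). Of the 47 genes 27 were called, of which 4 rose and 23 fell, and 20 did not pass. Of all genes tested 42% were called, 20.3% as risen and 21.7% as fallen. Proteasome genes mostly give bright signals, and among the 9097 genes at or above the median signal 63.5% were called, 30.7% as risen and 32.8% as fallen. All 4 Ncl siRNA arrays lay below both control arrays for 26 of the 47 (26.7% of all genes and 33.5% of the bright ones), and above both for 7 (23.4% and 33.4%). The median change of the 47 was -0.10, against -0.05 over all genes and -0.02 over the bright ones. The changes ran from -0.79 to 0.22, all under 2-fold. By role, 7 of 8 alpha ring genes and 4 of 4 core assembly chaperones fell, while the 17 regulatory particle genes held 4 that rose and 5 that fell.

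**Figure D1:**
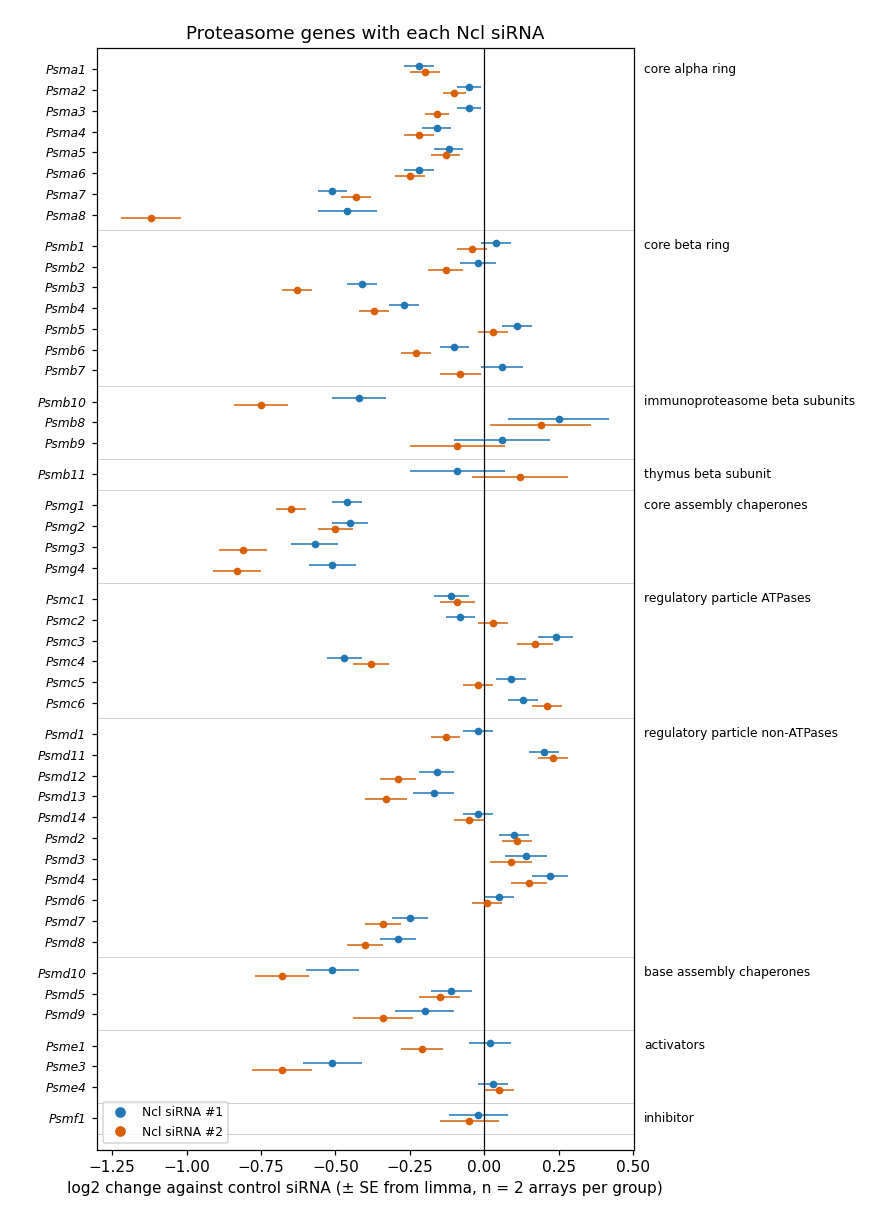
Change of each of the 47 proteasome genes with Ncl siRNA #1 (blue) and Ncl siRNA #2 (orange) against control siRNA, on a log2 scale, with 1 SE from limma (2 arrays per group), grouped by role. The alpha ring and core assembly chaperones lie left of 0 throughout, and the regulatory particle lies on both sides.

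In the alpha ring 7 of 8 genes fell, none rose, and the median change was -0.20, where 32.8% of bright genes fell and 30.7% rose. Psma7, an alpha ring subunit, read 12.42 and 12.45 in control, 11.96 and 11.89 with siRNA #1, and 12.01 and 12.00 with siRNA #2. Both control arrays were above all Ncl siRNA arrays, with little spread inside a group. It fell by 0.47 (SE 0.04, adjusted p = 8.35e-09), to 72.1% of control, and its second probe set fell by 0.38 (SE 0.06). Psma8, the germ cell counterpart of Psma7, gave 9.31 and 9.29 in control, 8.93 and 8.75 with siRNA #1, and 8.09 and 8.27 with siRNA #2. The groups formed 3 separate steps. Psma8 fell by 0.79 (SE 0.08, adjusted p = 6.64e-08), which was the lowest change among the 47 genes.

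The other alpha subunits build the same ring and fell by less. Psma6 fell by 0.24 (SE 0.04, adjusted p = 4.08e-05), Psma1 by 0.21 (SE 0.04, adjusted p = 3.18e-04) and Psma4 by 0.19 (SE 0.04, adjusted p = 0.00101). Psma5 (-0.13, adjusted p = 0.0173) and Psma3 (-0.10, adjusted p = 0.0299) passed narrowly. Psma2 did not pass (-0.08, 95% confidence interval -0.16 to -0.00, adjusted p = 0.0946). The other probe sets of Psma5 fell by 0.29 (SE 0.04) and by 0.50 (SE 0.15), the latter at a mean signal of 4.83. The other probe set of Psma3 did not pass (-0.33, adjusted p = 0.0508). For all 8 alpha genes every Ncl siRNA array lay below both control arrays. The calls of Psma3 and Psma5 ended under quantile normalization and when control siRNA replicate 1 or Ncl siRNA #2 replicate 2 was left out, and that of Psma3 also without control siRNA replicate 2. With each gene's probe sets averaged Psma1 and Psma6 did not pass. These averages include dim probe sets, with mean signals of 4.22 to 6.56 for Psma1 and of 4.58 and 6.32 for Psma6. None of these dim probe sets passed, while a bright other probe set of Psma6 (mean signal 12.43) fell by 0.23 (SE 0.04).

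In the beta ring 3 of 7 genes fell and none rose (median -0.07), where 32.8% of bright genes fell and 30.7% rose. The difference from these shares was not tested. Psmb3, which has no catalytic site, read 12.80 and 12.85 in control, 12.47 and 12.36 with siRNA #1, and 12.16 and 12.23 with siRNA #2. It stepped down from control to siRNA #1 to siRNA #2 without overlap. It fell by 0.52 (SE 0.04, adjusted p = 2.35e-09), to 69.6% of control, and its second probe set fell by 0.56 (SE 0.04). Psmb4, another subunit without a catalytic site, read 13.10 and 13.13 in control, 12.93 and 12.77 with siRNA #1, and 12.70 and 12.79 with siRNA #2, and fell by 0.32 (SE 0.05, adjusted p = 4.39e-06). Psmb1 and Psmb2, which also lack catalytic sites, did not pass (-0.00 and -0.07, adjusted p = 0.981 and 0.243), and their groups overlapped.

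Among the catalytic subunits of the constitutive core, Psmb6, with the caspase-like site, fell by 0.16 (SE 0.04, adjusted p = 0.00325). Its arrays read 12.88 and 12.95 in control, 12.84 and 12.81 with siRNA #1, and 12.64 and 12.74 with siRNA #2, so siRNA #1 lay just under control. That call ended under quantile normalization and without control siRNA replicate 2. Psmb5, with the chymotrypsin-like site, read 12.70 and 12.69 in control, 12.84 and 12.78 with siRNA #1, and 12.73 and 12.73 with siRNA #2, a change of 0.07 (95% confidence interval -0.01 to 0.15, adjusted p = 0.159). Psmb7, with the trypsin-like site, changed by -0.01 (95% confidence interval -0.13 to 0.11, adjusted p = 0.924), and its groups overlapped. Of the 15 constitutive core genes together 10 fell and 5 did not pass (median -0.16), and without Psma8 9 of 14 fell. Of the bright genes 32.8% fell. With variances fitted without a trend 5 of the 15 fell.

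The immunoproteasome subunits did not move together. Psmb10 read 9.93 and 10.03 in control, 9.69 and 9.43 with siRNA #1, and 9.26 and 9.19 with siRNA #2. It dropped in steps, with the arrays of siRNA #1 between the other groups. It fell by 0.59 (SE 0.08, adjusted p = 1.22e-06), to 66.7% of control. Psmb8 read 5.44 and 5.27 in control, 5.62 and 5.58 with siRNA #1, and 5.49 and 5.60 with siRNA #2. All these readings lay below the median of their arrays, and the 4 Ncl siRNA readings lay above both control readings. The change of 0.22 did not pass (95% confidence interval -0.09 to 0.52, adjusted p = 0.262). Psmb9 read 6.44 and 6.56 in control, 6.68 and 6.45 with siRNA #1, and 6.36 and 6.46 with siRNA #2, and its groups overlapped (-0.01, 95% confidence interval -0.29 to 0.27, adjusted p = 0.954). Psmb11, the subunit of thymus epithelium, read between 4.35 and 4.65 on all 6 arrays and did not pass (0.01, adjusted p = 0.951). Leukocytes are rich in the immunoproteasome, and their markers had a median change of -0.18, with Ctss at -1.68 and Arhgdib at 1.57; the part of these in the values of Psmb8, Psmb9 and Psmb10 was not tested.

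Psmb8 and Psmb9 lie beside the peptide transporter genes in the class II region of the major histocompatibility complex on chromosome 17. In GRCm38.p6, 225 bases separate Psmb9 (34182030 to 34187330) from Tap1 (34187556 to 34197225), and 969 bases separate Tap1 from Psmb8 (34198195 to 34201454). Tap2 follows at 34204479 to 34216321. Tap1 and Tap2 form the transporter that carries peptides made by the proteasome into the endoplasmic reticulum. Tap1 read 6.62 and 6.50 in control, 8.45 and 8.40 with siRNA #1, and 8.59 and 8.62 with siRNA #2. The Ncl siRNA arrays stood far above control, and Tap1 rose by 1.96 (SE 0.10, adjusted p = 3.5e-13), or 3.88-fold. Tap2 did not pass (0.08, SE 0.13, adjusted p = 0.685). The mean signals of Psmb8 (5.5), Psmb9 (6.49) and Tap2 (6.59) lay under the median of 6.943 over genes. Changes of these 3 genes are therefore measured poorly, and a difference from Tap1 was not tested. The gap between Psmb9 and Tap1 is the first sequence shown above.

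**Figure D2:**
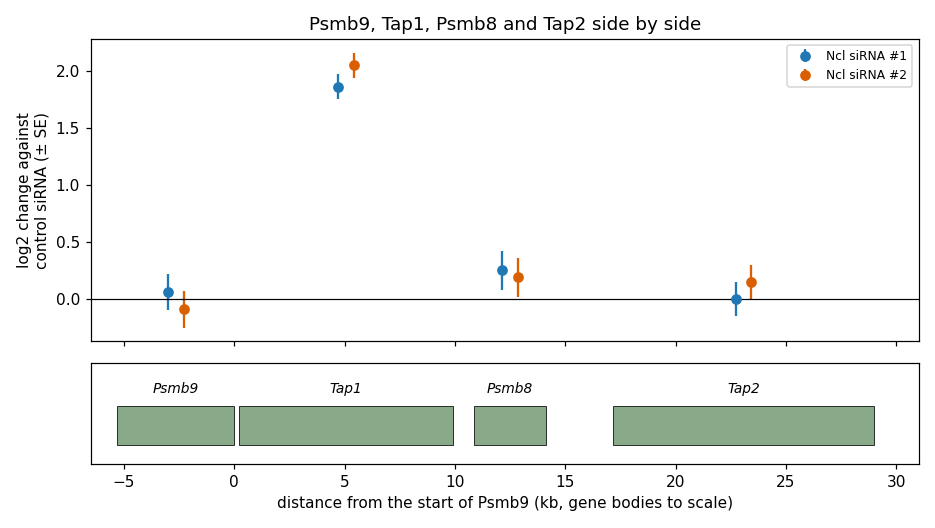
Upper panel, log2 change with each Ncl siRNA against control siRNA (with 1 SE from limma) for Psmb9, Tap1, Psmb8 and Tap2. Lower panel, the gene bodies to scale by distance from the start of Psmb9 in kb. The change of Tap1 was 1.86 (siRNA #1) and 2.05 (siRNA #2), while its neighbours did not pass with either. The neighbours were dim, with mean signals of 5.5 (Psmb8), 6.49 (Psmb9) and 6.59 (Tap2).

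Of 17 measured genes of class I antigen processing and the interferon response 10 rose, 2 fell and 5 did not pass (median 0.44). Of all genes tested 20.3% rose and 21.7% fell, and of the bright ones 30.7% and 32.8%. Nlrc5, the transactivator of class I genes, rose by 2.19 (SE 0.17, adjusted p = 4.73e-10). Gbp2, an interferon-induced GTPase, rose by 3.03 (SE 0.12, adjusted p = 1.18e-14). Tapbp, the tapasin that loads peptides, rose by 1.01 (SE 0.07), Erap1, the peptidase that trims them, by 1.13 (SE 0.16), H2-D1, a class I heavy chain, by 0.97 (SE 0.08) and Irf1, an interferon-induced transcription factor, by 0.64 (SE 0.08). The control readings of Nlrc5 (4.70 and 4.14), Gbp2 (4.96 and 5.28) and Erap1 (4.68 and 4.41) lay below the median of their arrays, no detection calls were used, and the sizes of these 3 changes are uncertain for that reason. Irf9 and Stat2, subunits of the factor that answers type I interferon, fell by 1.07 (SE 0.12) and 0.40 (SE 0.16). B2m, the light chain of class I, went opposite ways: its change was -0.33 for siRNA #1 (adjusted p = 0.00101) and 0.52 for siRNA #2 (adjusted p = 4.87e-06). Psmb8, Psmb9 and Psmb10 were 0 of 3 risen in arrays in which 10 of these 17 genes rose. With 20.3% of all genes risen, 0 of 3 is not set apart from that share. Psmb8 and Psmb9 were also dim, with mean signals of 5.5 and 6.49 against a median of 6.943 over genes. The difference between the sets was not tested.

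**Figure D3:**
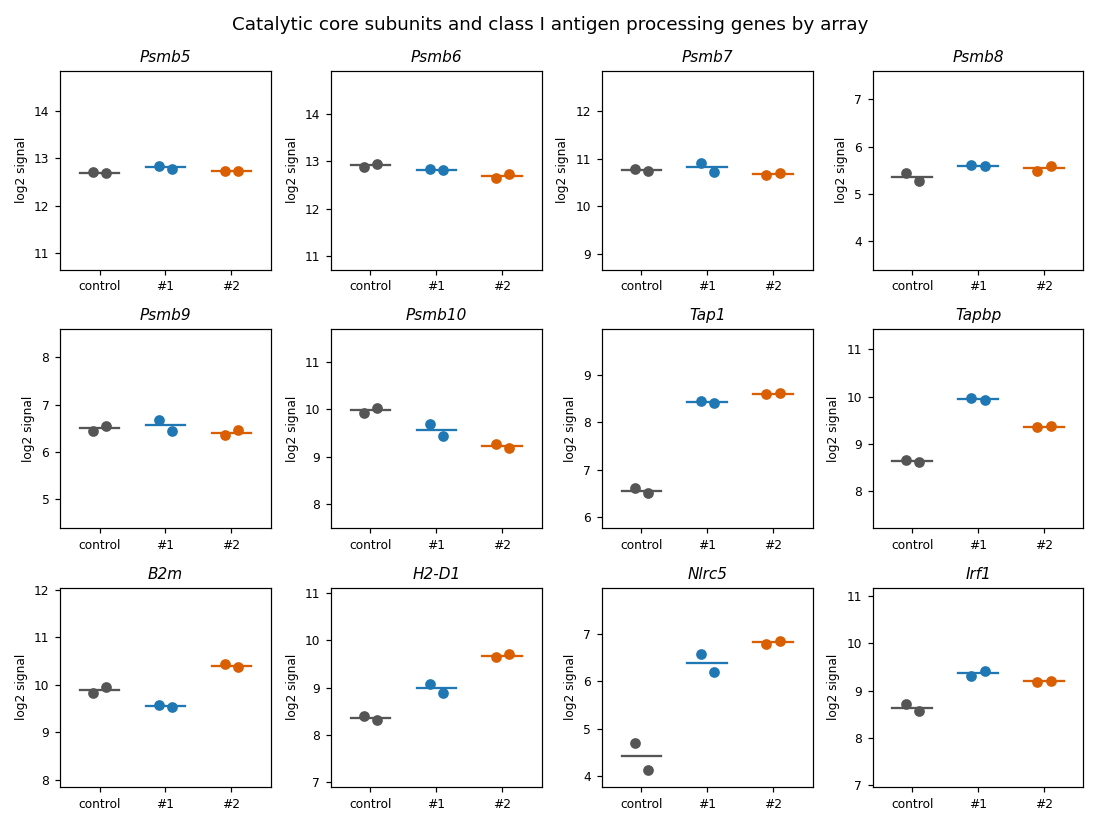
Log2 signal of each array (points) with the group mean (line) for the catalytic subunits of the constitutive core, the immunoproteasome subunits and 6 genes of class I antigen processing, in control, Ncl siRNA #1 and Ncl siRNA #2. The axes differ in position and share 1 height in log2 units. Psmb10 steps down, Psmb8 and Psmb9 stay low, and Tap1, Tapbp, H2-D1, Nlrc5 and Irf1 lie above control with both siRNAs.

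All 4 core assembly chaperones fell, where 32.8% of bright genes did. Psmg1 and Psmg2 form a heterodimer on which the alpha ring is built, and Psmg3 and Psmg4 form another that assists it. Psmg1 read 11.97 and 12.07 in control, 11.57 and 11.55 with siRNA #1, and 11.38 and 11.36 with siRNA #2, and fell by 0.56 (SE 0.05, adjusted p = 2.6e-09). Psmg2 read 11.20 and 11.22, then 10.68 and 10.83, then 10.69 and 10.72 in the same order, and fell by 0.48 (SE 0.05, adjusted p = 2.44e-07). For both, the Ncl siRNA arrays lay clearly below control. Psmg3 read 10.26 and 10.32, then 9.83 and 9.62, then 9.41 and 9.55, and fell by 0.69 (SE 0.07, adjusted p = 4.95e-08). Psmg4 read 10.11 and 10.03, then 9.67 and 9.44, then 9.26 and 9.23, and fell by 0.67 (SE 0.07, adjusted p = 8.7e-08). These 2 genes again formed 3 steps without overlap. The median of the 4 changes was -0.61, and all 4 calls were kept under each alternative run. A second probe set of Psmg2 also fell, by 0.35 (SE 0.06), while the other probe sets of Psmg2, Psmg3 and Psmg4 were dimmer and did not pass. Pomp, the chaperone that completes the beta ring, fell by 0.26 (SE 0.05, adjusted p = 7.77e-05).

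**Figure D4:**
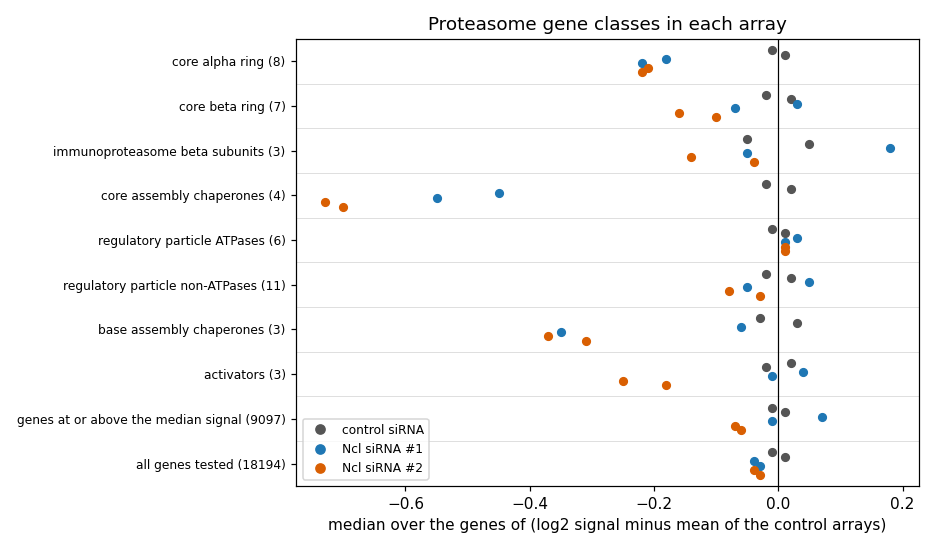
Median over the genes of each class (number in brackets) of the log2 signal minus the mean of the control arrays, for each of the 6 arrays, with the genes at or above the median signal and all genes tested for comparison. The core assembly chaperones lie between -0.45 and -0.73 in the Ncl siRNA arrays, the alpha ring between -0.18 and -0.22, and the regulatory particle ATPases between 0.01 and 0.03.

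The regulatory particle had 4 of 17 genes risen, 5 fallen and 8 not past the test (median -0.03). Among bright genes 30.7% rose and 32.8% fell, so these counts lie near that background. The ATPases form the ring that unfolds substrates. Psmc4 read 12.98 and 12.98 in control, 12.37 and 12.64 with siRNA #1, and 12.65 and 12.56 with siRNA #2, and fell by 0.43 (SE 0.05, adjusted p = 1.19e-06), with a second probe set that fell by 0.18 (SE 0.05). Psmc3 read 12.30 and 12.34 in control, 12.64 and 12.47 with siRNA #1, and 12.44 and 12.54 with siRNA #2, and rose by 0.20 (SE 0.05, adjusted p = 0.00184). Psmc6 rose by 0.17 (SE 0.04, adjusted p = 0.00276). These ring neighbours thus moved in both directions, and Psmc1 (-0.10), Psmc2 (-0.03) and Psmc5 (0.04) did not pass. Psmc2 without probe sets ending in _x_at or _s_at rested on another probe set and rose, by 0.12.

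Among the 11 non-ATPase subunits 2 rose and 4 fell, where 30.7% of bright genes rose and 32.8% fell. The lid subunits Psmd8, Psmd7, Psmd13 and Psmd12 fell by 0.35 (SE 0.05), 0.30 (SE 0.05), 0.25 (SE 0.06) and 0.23 (SE 0.05). With each gene's probe sets averaged Psmd7 (-0.13, adjusted p = 0.246) and Psmd13 (-0.14, adjusted p = 0.174) no longer passed, which left 3 regulatory particle genes lower, and without control siRNA replicate 2 Psmd13 did not pass (-0.20, adjusted p = 0.0581). Psmd8 read 11.47 and 11.51 in control, 11.24 and 11.15 with siRNA #1, and 11.07 and 11.11 with siRNA #2, with no overlap. Psmd7 is the partner of the deubiquitinating enzyme Psmd14, whose own change of -0.04 did not pass (adjusted p = 0.502). The ubiquitin receptor Psmd4 rose by 0.18 (SE 0.05, adjusted p = 0.00518), a call that ended without control siRNA replicate 1. The lid subunit Psmd11 rose by 0.22 (SE 0.04, adjusted p = 1.22e-04) on its probe set of highest mean signal, yet other probe sets of it fell by 0.17 (SE 0.05) and 0.25 (SE 0.06), and the mean of its probe sets changed by -0.00. The direction of Psmd11 therefore depends on the probe set. The scaffold subunits Psmd1 (-0.07) and Psmd2 (0.11) and the lid subunits Psmd3 (0.11) and Psmd6 (0.03) did not pass. With variances fitted without a trend 0 of the 17 regulatory particle genes rose and 3 fell.

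The base assembly chaperones hold the ATPases until the regulatory particle is complete. Psmd10, also called gankyrin, read 9.78 and 9.84 in control, 9.44 and 9.16 with siRNA #1, and 9.12 and 9.14 with siRNA #2, and fell by 0.60 (SE 0.08, adjusted p = 1.28e-06). Psmd9 fell by 0.27 (SE 0.08, adjusted p = 0.0114), a call lost without control siRNA replicate 2 and with its probe sets averaged, and Psmd5 did not pass (-0.13, adjusted p = 0.0746), although all 4 of its Ncl siRNA arrays lay below control. Of the activators, Psme3, a nuclear cap that opens the core without ubiquitin, read 9.29 and 9.26 in control, 8.90 and 8.63 with siRNA #1, and 8.52 and 8.68 with siRNA #2. It fell by 0.60 (SE 0.09, adjusted p = 6.2e-06), and a second probe set fell by 0.28 (SE 0.10). Psme1, a subunit of the interferon-induced activator, and Psme4, an activator known from spermatogenesis, did not pass (-0.10 and 0.04, adjusted p = 0.199 and 0.539). A second probe set of Psme4 fell by 0.44. Psmf1, the inhibitor, did not pass (-0.03, adjusted p = 0.787).

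Of the 2 matching genes that are no proteasome subunits, Psmc3ip fell by 0.51 (SE 0.07, adjusted p = 1.65e-06) and Psme3ip1 rose by 0.34 (SE 0.05, adjusted p = 1.13e-05).

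Each siRNA was also compared with the control alone, and these comparisons share the control arrays. With siRNA #1, 22 of the 47 genes were called, against 37.4% of all genes and 56.2% of the bright ones. Of these 3 rose and 19 fell, against 20.2% and 17.3% of all genes and 31.4% and 24.8% of the bright ones. With siRNA #2, 27 were called, against 39.5% of all genes and 61.9% of the bright ones. Here 3 rose and 24 fell, against 17.7% and 21.7% of all genes and 26.4% and 35.5% of the bright ones. Psma7 changed by -0.51 (SE 0.05) under siRNA #1 and by -0.43 (SE 0.05) under siRNA #2. Psmc4 fell by 0.47 (SE 0.06) and by 0.38 (SE 0.06) in the same order. Psmb10 fell by 0.42 (SE 0.09) and by 0.75 (SE 0.09), and Psma8 by 0.46 (SE 0.10) and by 1.12 (SE 0.10). Psme1 read 0.02 (adjusted p = 0.869) with siRNA #1 and fell by 0.21 (adjusted p = 0.0144) with siRNA #2. Psmd4 rose by 0.22 (adjusted p = 0.00455) with siRNA #1 and read 0.15 (adjusted p = 0.0514) with siRNA #2.

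The difference between both siRNAs was tested directly, as siRNA #2 minus siRNA #1. Of the 47 genes 6 were called, against 8.48% of all genes tested and 14.8% of the bright ones. All 6 were lower with siRNA #2, against 6.18% of all genes and 11.3% of the bright ones, and 0 were higher, against 2.3% and 3.52%. The count lies near that of bright genes. The bright genes had a median of -0.10 in this comparison and the 47 genes one of -0.08. Psma8 was lower with siRNA #2 by a log2 difference of -0.66 (SE 0.10, adjusted p = 1.4e-04). Psmb10 differed by -0.34 (adjusted p = 0.0181), Psmg4 by -0.31 (adjusted p = 0.0231), Psme1 by -0.23 (adjusted p = 0.0367), Psmb3 by -0.22 (adjusted p = 0.0109) and Psmg1 by -0.19 (adjusted p = 0.0348). The second probe set of Psmb3, at a mean signal of 12.4, did not pass (-0.07, adjusted p = 0.47). Without Ncl siRNA #1 replicate 2 the count was 22, of which 20 were lower, without Ncl siRNA #1 replicate 1 or Ncl siRNA #2 replicate 1 it was 1, and without Ncl siRNA #2 replicate 2 it was 2, so it rests on single arrays.

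Genes around the proteasome were taken from lists of its partners and regulators. Of 22 measured genes for other subunits, assembly factors and docked enzymes, 10 rose, 7 fell and 5 did not pass (median 0.01), where 30.7% of bright genes rose and 32.8% fell. Ecpas, an adaptor that binds proteasomes, rose by 0.98 (SE 0.09), Zfand2a, an arsenite-induced proteasome partner, by 0.78 (SE 0.07), Ubr4, a ubiquitin ligase, by 0.63 (SE 0.08) and Zfand5, an activator of the proteasome, by 0.41 (SE 0.05). The docked deubiquitinases went apart, as Usp14 rose by 0.30 (SE 0.06) and Uchl5 fell by 0.43 (SE 0.05). Vcp, the segregase that extracts substrates, rose by 0.31 (SE 0.04), and Rad23b, a shuttle for ubiquitinated proteins, fell by 0.31 (SE 0.04). Akirin2, which brings proteasomes into the nucleus, rose by 0.16 (SE 0.04), and its partner Ipo9 fell by 0.28 (SE 0.06).

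Of 13 measured regulators of proteasome gene transcription 3 rose, 3 fell and 7 did not pass (median -0.06), against 20.3% and 21.7% of all genes. Nfe2l1, the factor that raises proteasome genes when the proteasome is inhibited, read 9.81 and 9.77 in control, 9.76 and 9.66 with siRNA #1, and 9.56 and 9.55 with siRNA #2, and its change of -0.16 did not pass (SE 0.06, adjusted p = 0.0511). Nfe2l2, its relative in the oxidative stress response, fell by 0.40 (SE 0.06), and Keap1, which holds Nfe2l2 for degradation, fell by 0.44 (SE 0.08). Ngly1, the enzyme that processes Nfe2l1, rose by 0.34 (SE 0.10) and Stat3 by 0.32 (SE 0.07). The subunits of the CCAAT-binding factor, Nfya (0.07), Nfyb (0.14) and Nfyc (0.01), did not pass. Among 6 ubiquitin and E1 genes only Uba6, an activating enzyme, was measured under the same rule, and it did not pass (0.02, adjusted p = 0.822).

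The COP9 signalosome, whose subunits resemble the lid, had 5 of 9 genes risen, 1 fallen and 3 not past the test (median 0.20). In it Cops7a rose by 0.31 (SE 0.06) and Cops4 fell by 0.52 (SE 0.06). The CCT chaperonin, another abundant complex of the cytosol, had 3 of 8 risen, none fallen and 5 not past the test (median 0.02). Among bright genes 30.7% rose and 32.8% fell, so the 3 of 8 risen in CCT lie near that background, and the difference between these complexes and the proteasome was not tested.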

How the data were processed

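The deposited values of the series are log2 probe set signals, per the range of the values (2.469 to 15.339). RNA was labelled with an Affymetrix kit per the labels' protocols. How the authors corrected, summarised and normalized the arrays is not given in the sources used here. No further scaling was applied. Of 45101 probe sets, 34958 carried 1 symbol in the platform annotation, 932 several and 9211 none; the first were reduced to 18194 genes by the highest mean. Of the 103 probe sets of the matching genes 54 were not used.

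All 6 arrays entered a limma 3.58.1 model (R 4.3.3) with a mean for each group, variances following mean signal, 3 residual and 17.5 prior degrees of freedom, Benjamini-Hochberg over all genes and a threshold of 0.05. Values of other probe sets come from the same fit over all probe sets. The procedure was tested on simulated data.

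Alternatives were quantile normalization, median centring, the mean of all probe sets, no _x_at or _s_at probe sets, genes at or above the median signal only, no variance trend, only the groups compared, array weights, a replicate block, a threshold of 0.01, and leaving out each array. Members and lists were chosen with earlier results of these data known, and every member is accounted for; genes outside the 47 were named from the lists for their role or the size of their change.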

Additional observations from a re-analysis of the deposited data

Results flagged for a closer look

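By limma's test of the difference itself, siRNA #1 and siRNA #2 were called different for 6 proteasome genes and Psmc3ip. Those 6 of 47 stand against 8.48% of all genes tested and 14.8% of the bright ones, near the latter. Under every alternative run 0 of the 6 calls were kept. On the log2 scale and as siRNA #2 minus siRNA #1, the difference was -0.66 for Psma8 (adjusted p = 1.4e-04), -0.34 for Psmb10 (adjusted p = 0.0181), -0.31 for Psmg4 (adjusted p = 0.0231) and -0.31 for Psmc3ip (adjusted p = 0.0172). It was -0.23 for Psme1 (adjusted p = 0.0367), -0.22 for Psmb3 (adjusted p = 0.0109) and -0.19 for Psmg1 (adjusted p = 0.0348). Bright second probe sets of Psmb3 (-0.07, adjusted p = 0.47) and Psmc3ip (-0.21, adjusted p = 0.269) did not pass.

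Class I antigen processing genes differed in both directions. Tapbp (-0.58, adjusted p = 6.27e-05) and Gbp2 (-0.50, adjusted p = 0.0321) were lower with siRNA #2. H2-K1 (0.46, adjusted p = 0.00184), H2-D1 (0.69, adjusted p = 3.89e-05) and B2m (0.85, adjusted p = 1.32e-07) were higher with siRNA #2.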

How the results depend on the processing

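Of the 27 proteasome genes called for the mean of both siRNAs, 13 kept their call under every alternative run, namely Psma7, Psma8, Psmb3, Psmb4, Psmb10, Psmg1 to Psmg4, Psmc4, Psmd8, Psmd10 and Psme3. For siRNA #1 this held for 12 of 22, for siRNA #2 for 14 of 27, and for the difference between the siRNAs for 0 of 6. Variances without a trend lowered these counts of calls to 12, 16, 15 for the mean, and 0 for the difference, with 5 constitutive core genes lower. The count for the difference was 2 under quantile normalization, 1 with the mean of all probe sets and 1 at an adjusted p under 0.01. Leaving out 1 array gave 19 to 25 calls for siRNA #1, 22 to 33 for siRNA #2, 23 to 30 for the mean and 1 to 22 for the difference. Deviations of same-numbered arrays showed no shared shift over genes (correlations -0.019, -0.005 and 0.01), which cannot exclude that arrays were paired. With the replicate block the counts were 21, 28, 27 and 6.

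Other probe sets of a gene, each on its own, turned some directions. With siRNA #1 they gave 0.11 and 0.16 for Psma1, 0.12 for Psma6, 0.16 for Psmc2 (the same without _x_at or _s_at probe sets), 0.07 for Psmd7, 0.41 for Psmd9, -0.40 for Psme4, and -0.08, -0.20, -0.08, -0.20 and -0.06 for Psmd11. With siRNA #2 they gave 0.01 for Psma1, 0.20 for Psma6, 0.16 for Psmg2, 0.44 for Psmc1, 0.03 for Psmd13, 0.14 for Psmd7, 0.10 for Psmd9, -0.48 for Psme4, and -0.26, -0.30 and -0.09 for Psmd11. For the mean they gave 0.08 for Psma1, 0.16 for Psma6, 0.05 for Psmg2, -0.44 for Psmd6, 0.10 for Psmd7, 0.26 for Psmd9, -0.44 for Psme4, and -0.17, -0.07, -0.25 and -0.08 for Psmd11. Psmc2 without _x_at or _s_at probe sets gave 0.12, and the mean of all probe sets of Psmd11 gave -0.01 with siRNA #1 and -0.00 for the mean. The cause of these differences was not tested. Of 38 other probe sets of called genes among all 49 matching genes, Psmc3ip included, 12 passed in the same direction for the mean. Another 2 passed in the opposite one and 24 did not pass. Probe sets of low signal measure a change poorly, as the confidence intervals of Psmb8 and Psmb9 show.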
